A study of Mus musculus with 2 samples.

Results

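Slc17a6 encodes VGLUT2, the transporter that loads glutamate into synaptic vesicles, and it marks most glutamatergic neurons of the embryonic brain below the cortex. Slc17a6 neurons were taken here as barcodes with at least 1 UMI (unique molecular identifier, a tag of 1 captured RNA molecule) of Slc17a6 and UMIs of at least 3 of 12 neuron genes (Tubb3, Dcx, Stmn2, Stmn3, Elavl3, Elavl4, Map2, Ina, Gap43, Rbfox3, Mapt and Rtn1), and with 0 UMIs of Gad1, Gad2, Isl1, Isl2 and Pdgfra. The rule was met by 749 of the 19056 barcodes of the NTD library and by 305 of the 18572 barcodes of the control library, 1054 of 37628 in all. Scrublet, a caller of barcodes that hold more than 1 cell, marked 99 of these in the NTD library (13.2%) and 61 in the control library (20%), and the values below rest on the remaining 650 NTD and 244 control Slc17a6 neurons. The NTD embryos, with neural tube defects, were carried by dams fed low-folate chow and injected into the peritoneum at gestational day 7.5 with 1.5 mg/kg of methotrexate (MTX), a folate antagonist. They were small and delayed, mostly with hindbrain malformations and spina bifida. The control embryos came from dams given normal saline and had closed neural tubes. Closure was scored from embryonic day 9.5 to 10.5 and brain tissue was used. The sources used here do not give the diet of the control dams, the mouse strain, or the stage, sex and number of embryos behind each library. Each group had 1 library, so no difference between them has a replicate check, no p-value was computed, and every interval is a 95% interval that covers counting error only.

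Glutamatergic neurons of the early neural tube form in bands along its dorsal to ventral and head to tail axes. A newborn neuron switches off progenitor genes such as Sox2 and Hes5, takes up the neuron programme of Dcx, Elavl3 and Tubb3, and keeps a combination of transcription factors that records where it was born. LIM homeodomain genes such as Lhx9, Lhx1 and Lmx1b, the bHLH-PAS gene Sim1 and the Hox genes of the hindbrain and spinal cord are parts of that record.

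Both libraries held much free RNA. The haemoglobin gene Hba-x had a UMI in 100% of the Slc17a6 neurons of each library. As a class that should lack neuronal RNA, 396 NTD and 628 control barcodes with endothelial, macrophage or erythroid genes were used, called blood and vessel barcodes below, with medians of 3134.5 and 2619 UMIs. They hold RNA of their own as well as free RNA, and for genes that are not specific to neurons these were not told apart. The Slc17a6 neurons had medians of 2750.5 UMIs in the NTD library and 2724 UMIs in the control library. At least 3 of the 12 neuron genes were held by 60.4% of blood and vessel barcodes in the NTD library and 27.4% in the control library, so the neuron genes alone do not keep free RNA out. The Slc17a6 part was more selective, with a UMI in 3.54% and 1.43% of them, and 7 NTD and 3 control Slc17a6 neurons were blood and vessel barcodes as well. The libraries shared 105 barcode sequences, of which 0 belonged to a Slc17a6 neuron in both.

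The values that chose the neurons are given as a description. Slc17a6 itself, at chr7:51622006-51671119 on the plus strand of GRCm38, stood at 548 CPM in NTD neurons and 613 CPM in control ones, where CPM are UMIs summed over the neurons of a library and scaled to a common total by trimmed means. In the NTD library 64.0% of the neurons held just 1 Slc17a6 UMI, against 54.5% in the control library, and the highest counts were 18 and 9 UMIs. Of the neuron genes, the tubulin gene Tubb3 was held by 88.6% of NTD and 83.2% of control Slc17a6 neurons, and Map2, a microtubule protein of dendrites, by 80.8% and 90.6%. Rbfox3, which encodes the late neuronal marker NeuN, was held by 22.9% of NTD and 35.2% of control neurons. The median number of neuron genes held was 6 in the NTD library and 7 in the control library. Just inside the threshold, the neurons with 3 neuron genes numbered 76 in the NTD library and 15 in the control library. Just outside it, 51 NTD and 23 control barcodes met the rest of the rule with 2 neuron genes.

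RefSeq promoter windows (GRCm38.p6), from 250 bases before to 50 bases after a start site, were found for 4 of the 5 genes looked up. They are shown for Slc17a6, the gene that defines the class and has a pair of annotated starts, for Cacna2d1, which most of the neurons held, and for Tmem163, a marker of the class. Capitals mark CAGATG, an E-box core of the kind that proneural bHLH factors bind (searched with its reverse complement CATCTG), and TAATTA, a homeodomain core that is its own reverse complement. These 2 motifs do not overlap in the windows shown.
Slc17a6 start 1, chr7:51621580-51621879, plus strand: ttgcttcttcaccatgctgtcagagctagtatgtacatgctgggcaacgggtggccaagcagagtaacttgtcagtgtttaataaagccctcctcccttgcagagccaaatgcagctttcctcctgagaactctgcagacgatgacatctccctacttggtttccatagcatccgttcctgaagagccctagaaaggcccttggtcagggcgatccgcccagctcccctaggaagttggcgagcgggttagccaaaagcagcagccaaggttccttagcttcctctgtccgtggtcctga
Slc17a6 start 2, chr7:51624387-51624686, plus strand: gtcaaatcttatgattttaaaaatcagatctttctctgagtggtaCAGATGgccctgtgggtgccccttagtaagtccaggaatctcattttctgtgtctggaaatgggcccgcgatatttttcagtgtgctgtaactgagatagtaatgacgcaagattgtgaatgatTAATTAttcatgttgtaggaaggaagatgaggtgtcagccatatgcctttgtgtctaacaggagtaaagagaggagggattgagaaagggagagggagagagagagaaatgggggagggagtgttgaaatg
Cacna2d1, chr5:15934441-15934740, plus strand: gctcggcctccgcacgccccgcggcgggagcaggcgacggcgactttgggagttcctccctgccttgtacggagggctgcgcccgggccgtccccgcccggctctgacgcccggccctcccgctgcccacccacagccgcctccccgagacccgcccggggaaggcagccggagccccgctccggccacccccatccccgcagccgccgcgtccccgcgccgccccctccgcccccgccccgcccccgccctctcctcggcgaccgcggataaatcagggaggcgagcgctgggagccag
Tmem163, chr1:127677972-127678271, minus strand: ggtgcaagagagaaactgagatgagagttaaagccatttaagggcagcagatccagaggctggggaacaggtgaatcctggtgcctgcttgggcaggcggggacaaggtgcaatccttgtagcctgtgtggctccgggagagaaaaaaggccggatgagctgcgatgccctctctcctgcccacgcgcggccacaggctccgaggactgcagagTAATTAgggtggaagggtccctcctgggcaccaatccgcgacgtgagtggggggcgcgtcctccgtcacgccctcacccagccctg
The second Slc17a6 window held 1 CAGATG and 1 TAATTA, the Tmem163 window held 1 TAATTA, and the first Slc17a6 window and the Cacna2d1 window held neither. Of all 32851 windows in the table, 17.2% held CAGATG and 5.29% held TAATTA. The Cacna2d1 window was 80% G and C, against 43.0% in the second Slc17a6 window. Counts from the 3' end of transcripts do not tell the start sites of Slc17a6 apart, and a match is a description of letters.

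The transmitter label was checked with genes that the rule did not use, and inhibitory and cholinergic genes were scarce. Slc32a1, the vesicular transporter for GABA and glycine, stood at 1.05 CPM in NTD Slc17a6 neurons and had 0 UMIs in control ones, against 21.8 and 20 CPM in neurons of the same libraries chosen by Gad1 or Gad2 in place of Slc17a6 (681 NTD and 219 control, called Gad neurons below). The neuronal glycine transporter gene Slc6a5 had 0 UMIs in NTD and 2.62 CPM in control Slc17a6 neurons, against 32.4 and 266 CPM in the Gad neurons. Chat, which makes acetylcholine, had 0 UMIs in the NTD library, against 9.15 CPM in the control one. For scale, 3 UMIs correspond to 1.58 CPM in the NTD and 3.92 CPM in the control Slc17a6 neurons, so a count of 0 leaves low levels open. The other vesicular glutamate transporters were scarce, with Slc17a7 at 7.38 CPM in NTD and 9.15 CPM in control neurons and Slc17a8 at 1.05 and 1.31 CPM. Of the given markers, Nrn1, which encodes the neurite growth protein neuritin, was held by 37.5% of NTD neurons (33.8 to 41.4%) and 35.7% of control neurons (29.6 to 42.0%), against 5.81% and 1.59% of blood and vessel barcodes. Tmem163, a zinc transporter of synaptic vesicles, was held by 58.8% of NTD and 70.5% of control neurons, against 9.85% and 6.05%. Elavl4, an RNA-binding protein of neurons that is also part of the rule, was held by 57.2% and 67.6%, against 25.0% and 13.5%.

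The neuronal label was weaker in barcodes with few neuron genes. Cacna2d1, the alpha2delta-1 subunit of voltage-gated calcium channels, was held by 45.0% of the 140 NTD neurons with 3 or 4 neuron genes (36.6 to 53.6%) and 48.6% of the 35 such control neurons (31.4 to 66.0%). Among neurons with 8 or more neuron genes it was held by 96.2% of 208 NTD neurons (92.6 to 98.3%) and 95.8% of 120 control neurons (90.5 to 98.6%). The share in blood and vessel barcodes was 24.2% in the NTD and 17.0% in the control library. The Cacna2d1 intervals of the 2 libraries overlapped among neurons with 3 or 4, 5 to 7 and 8 or more neuron genes. The interval from 35 control neurons is wide, so overlap there does not show like shares. With exactly 3 neuron genes, Cacna2d1 was held by 32.9% of 76 NTD and 13.3% of 15 control neurons. Neurons with 3 or 4 neuron genes made up 21.5% of the NTD and 14.3% of the control Slc17a6 neurons. Neurons with more neuron genes also had more UMIs, with medians of 3354.5 in NTD and 3172 in control neurons holding 8 or more, against 2241.5 and 2104 in those holding 3 or 4. The progenitor gene Sox2 was held by 30.7% of NTD and 11.4% of control neurons with 3 or 4 neuron genes, and by 21.2% and 20% of those with 8 or more.

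**Figure D1:**
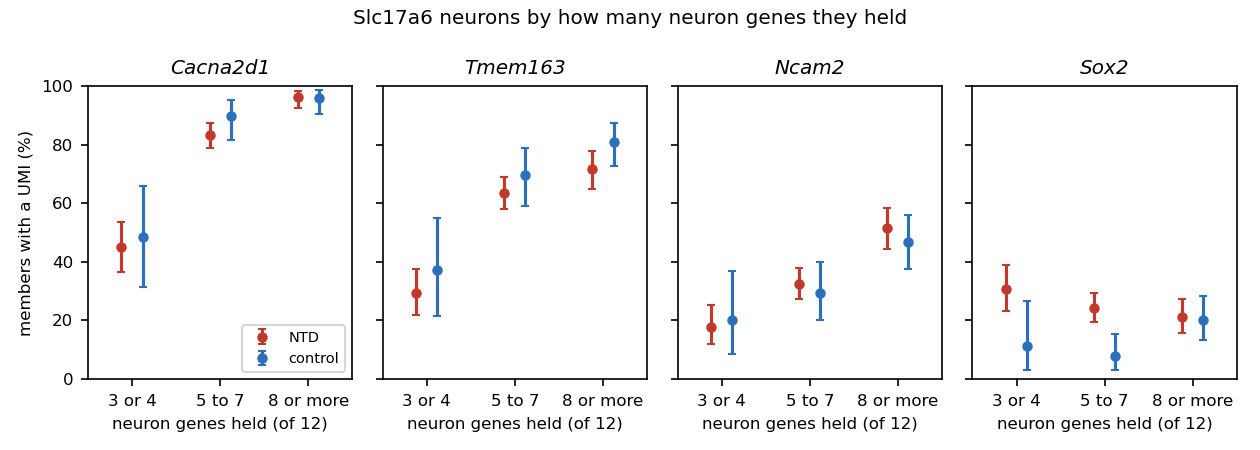
Share of Slc17a6 neurons with a UMI of 4 genes (vertical axis, percent), by how many of the 12 neuron genes they held (horizontal axis), in the NTD library (red, left of each pair) and the control library (blue). Points are shares and bars exact 95% intervals; Cacna2d1 goes from 45.0% in NTD and 48.6% in control neurons with 3 or 4 genes to 96.2% and 95.8% in those with 8 or more.

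Of 11316 genes measured in the Slc17a6 neurons (at least 20 UMIs over both libraries), 32 (0.283%) were at least 4-fold above the Gad neurons in each library, and 27 of these were also at least 4-fold above blood and vessel barcodes in each. Slc17a6 is among the 32 by the rule, and the other 31 are called the signature below. One of them, Gmnc, was held by 1.54% of NTD neurons and by 0.410% of control neurons, which is 1 of 244, so its 22 UMIs in the control library come from a single barcode. The fold was taken against at least 3 UMIs of the comparator, and the genes of this signature, other than those of the fixed lists, were named after their values were seen. Cacna2d1 (chr5:15934691-16374511, plus strand) stood at 2031 CPM in NTD and 1862 CPM in control Slc17a6 neurons, against 142 and 144 CPM in the Gad neurons of the NTD and control libraries. Nrn1 (chr13:36725361-36735131, minus strand) stood at 206 and 175 CPM, against 14.7 and 1.43 CPM. These differences from Gad neurons are what put a gene in the signature and are given as a description.

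Adhesion and receptor genes were part of the same signature. Ncam2, a homophilic adhesion molecule of axons, stood at 616 CPM in NTD and 607 CPM in control Slc17a6 neurons, against 108 and 121 CPM in the Gad neurons. Tenm1, a teneurin of synaptic partner recognition, stood at 151 and 110 CPM, against 20.3 and 18.6 CPM. Mdga1, which binds neuroligins, stood at 77.0 and 71.9 CPM, against 10.6 and 8.57 CPM. The group III metabotropic glutamate receptor gene Grm8 stood at 184 and 114 CPM, against 33.5 and 17.1 CPM. Chst8, a sulfotransferase for N-acetylgalactosamine, stood at 122 and 194 CPM, against 8.62 and 44.3 CPM, and Rasgrp1, an exchange factor that activates Ras, at 38.0 and 48.4 CPM, against 2.03 CPM in NTD Gad neurons and 0 UMIs in control ones. F13a1, the A chain of coagulation factor XIII and a gene of macrophages, stood at 213 and 298 CPM, against 12.7 and 10.0 CPM in the Gad neurons but 67.5 and 65.1 CPM in blood and vessel barcodes.

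Transcription factors of the signature came from several neuron families. Lhx9 stood at 170 CPM in NTD and 145 CPM in control Slc17a6 neurons, against 14.7 and 10.0 CPM in the Gad neurons. Sim1, a factor of hypothalamic and ventral spinal neurons, stood at 164 and 182 CPM, against 28.9 and 2.86 CPM. Tfap2d, an AP-2 factor of the midbrain, stood at 70.7 and 26.2 CPM, against 2.03 and 1.43 CPM. Eomes, a T-box factor of cortical intermediate progenitors and early telencephalic neurons, stood at 31.1 and 18.3 CPM, against 5.07 and 4.29 CPM. Evx1os, transcribed opposite Evx1, stood at 30.1 and 36.6 CPM, while Evx1, a factor of ventral V0 interneurons, stood at 3.69 and 5.23 CPM; the sources used here do not say whether the authors' counting used strand, so the assignment between these genes is uncertain. With Slc17a6 counted, 3 of the 32 genes were at least 1.5-fold higher and 8 at least 1.5-fold lower in NTD than in control neurons, where 17.2% of all measured genes were higher and 10.1% lower. Of the higher ones, Grm8 was lower (-0.45 on the log2 scale) among neurons with no Hox UMI, of which there were 570 in the NTD and 83 in the control library.

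**Figure D2:**
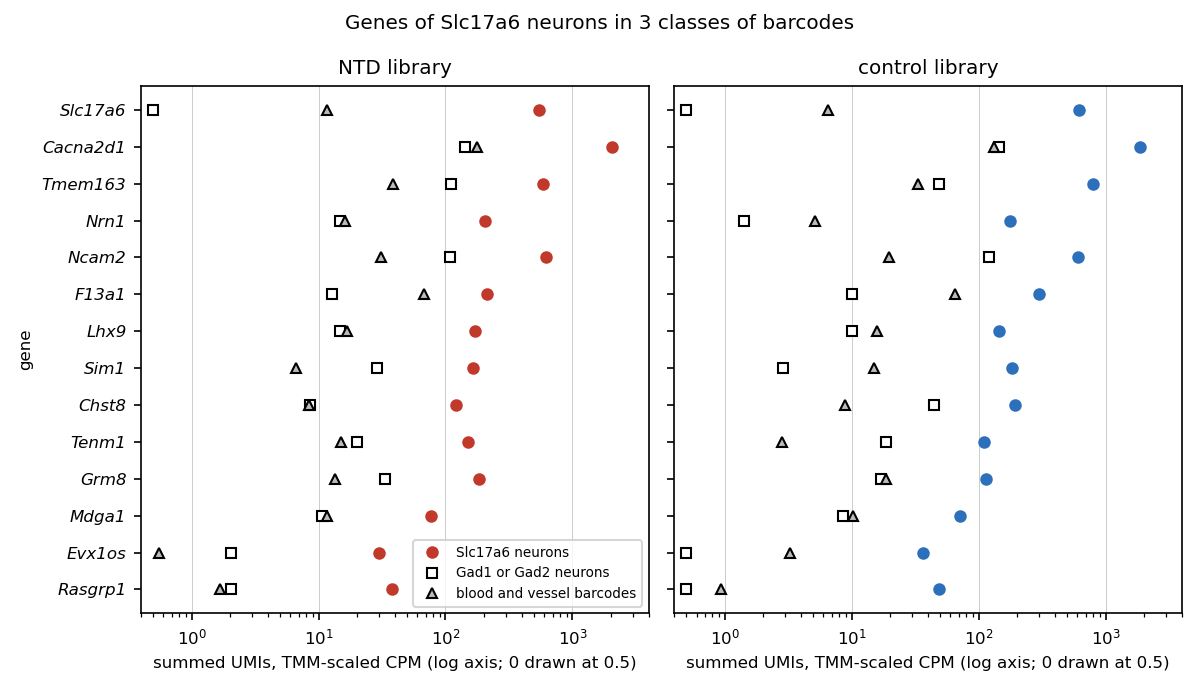
Level of 14 genes (rows) in TMM-scaled CPM (log axis) in Slc17a6 neurons (filled circles), Gad1 or Gad2 neurons (open squares) and blood and vessel barcodes (grey triangles), in the NTD library (left) and the control library (right). The circles lie right of both comparators for every gene shown, from Evx1os at 30.1 and 36.6 CPM to Cacna2d1 at 2031 and 1862 CPM. All 14 genes were picked from those at least 4-fold above the Gad neurons in each library, so circles right of squares follow from that choice. The Slc17a6 row is fixed by the rule.

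Barcodes that met the rule took a larger share of the NTD library, in neurons and in the background alike. They were 3.90% of the 16657 NTD barcodes not called doublets (3.61 to 4.21%) and 1.57% of the 15530 control barcodes (1.38 to 1.78%), a difference of 2.33 percentage points (1.98 to 2.69) and a ratio of 2.48. In blood and vessel barcodes a Slc17a6 UMI was held by 3.54% in the NTD and 1.43% in the control library, a ratio of 2.47, and the whole rule was met by 1.77% and 0.478%, a ratio of 3.70 that rests on 7 and 3 barcodes. After every barcode was thinned to 1500 UMIs the shares were 2.55% in the NTD and 1.41% in the control library, a difference of 1.14 points (0.815 to 1.46). Thinning left out 0 NTD and 3508 control barcodes (22.6%), which were shallower than 1500 UMIs. With at least 2 Slc17a6 UMIs the shares were 1.40% in the NTD and 0.715% in the control library. The Gad neurons were 4.09% of NTD and 1.41% of control barcodes. Among Slc17a6 and Gad neurons together, Slc17a6 neurons made up 48.8% in the NTD library (46.1 to 51.6%) and 52.7% in the control library (48 to 57.3%), a difference of -3.86 points (-9.11 to 1.42) that was not detectable at this depth. A share depends on every other class in the library, so more Slc17a6 neurons and fewer cells of other kinds cannot be told apart, and the part of free Slc17a6 RNA in the difference was not tested.

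The Slc17a6 neurons were a mixture of regional types, and for most subtype transcription factors the intervals of the shares overlapped between the libraries. Of the 41 subtype factors held by at least 5% of the neurons of a library, 36 had overlapping intervals. Lhx9, a factor of dorsal, thalamic and midbrain excitatory neurons, was held by 27.7% of NTD neurons (24.3 to 31.3%) and 26.2% of control neurons (20.8 to 32.2%), against 5.05% and 3.66% of blood and vessel barcodes. Lhx2, its close relative, was held by 32.6% and 26.2%, against 15.4% and 5.89%. Sim1 was held by 15.2% of NTD (12.6 to 18.2%) and 13.5% of control neurons (9.5 to 18.5%), against 1.77% and 2.39%. Uncx, a paired-type homeodomain factor, was held by 23.7% and 28.7%, against 4.29% and 3.34%. Ebf2, an early B cell factor of young neurons, was held by 52.9% and 54.9%, against 19.9% and 13.1%.

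The factors whose shares did not overlap were Lmx1a, Otx2, Nkx2-1, Tcf7l2 and Meis2. Lmx1a, a roof plate and ventral midbrain factor, was held by 8.92% of NTD neurons (6.85 to 11.4%) and 2.05% of control neurons (0.669 to 4.72%), against 4.55% and 1.91% of blood and vessel barcodes. After thinning, Lmx1a was held by 6.31% and 0.437%. Otx2, a factor of the forebrain and midbrain, was held by 14.8% of NTD neurons (12.1 to 17.7%) and 6.15% of control neurons (3.48 to 9.94%), but by 12.6% and 3.98% of blood and vessel barcodes. Nkx2-1, a ventral forebrain factor, was held by 5.85% and 1.64%, and by 4.8% and 1.27% of blood and vessel barcodes. Tcf7l2, a Wnt effector of the thalamus and of many other cells, was held by 29.5% and 17.6%, and by 58.8% and 50.5% of blood and vessel barcodes. For Otx2, Nkx2-1 and Tcf7l2 the shares in neurons are thus near or below those of blood and vessel barcodes and are not read as expression by the neurons. Whether blood and vessel barcodes express these genes themselves was not tested. Meis2 ran the other way, with 52.9% of NTD neurons (49.0 to 56.8%) and 70.1% of control neurons (63.9 to 75.8%), against 38.4% and 47.3% of blood and vessel barcodes. Among neurons with no Hox UMI, Meis2 was held by 51.2% of 570 in the NTD library (47.0 to 55.4%) and 53% of 83 in the control library (41.7 to 64.1%).

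**Figure D3:**
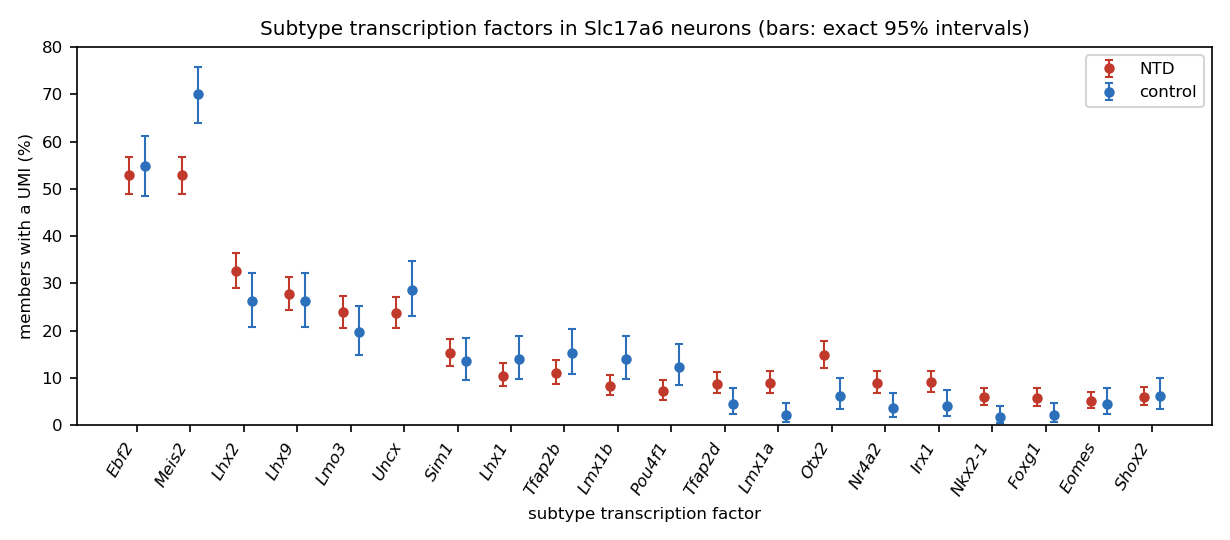
Share of Slc17a6 neurons with a UMI (vertical axis, percent) of 20 subtype transcription factors (horizontal axis), in the NTD library (red, left of each pair) and the control library (blue). Points are shares and bars exact 95% intervals; Lhx9 lies at 27.7% and 26.2%, while Lmx1a lies at 8.92% and 2.05%.

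The factors fell into combinations, and those given here ran the same way in both libraries. Lmx1a and Lmx1b were held together by 24 NTD neurons where 4.82 would follow from their separate shares, and by 3 control neurons where 0.697 would. Tfap2d and Shox2 met in 13 NTD neurons against 3.42 and in 3 control neurons against 0.676, and Lhx1 and Lhx5 in 15 against 5.65 and in 9 against 3.48. Other pairs were seldom in the same barcode. Tfap2d and Lmx1b met in 0 of 650 NTD neurons against 4.74 and in 0 of 244 control neurons against 1.53. Lhx9 and Lmx1b met in 4 NTD neurons against 15.0 and in 2 control neurons against 8.92. Free RNA and barcode depth add to such counts, and these pairs were picked after the counts were seen.

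Hox genes, which mark the hindbrain and spinal cord, separated the libraries, in Slc17a6 neurons, Gad neurons and blood and vessel barcodes alike. Whether the libraries sampled the same parts of the embryo was not tested. A UMI of any of 39 Hox genes was held by 12.3% of NTD Slc17a6 neurons (9.88 to 15.1%) and 66.0% of control ones (59.7 to 71.9%), a difference of -53.7 points (-59.8 to -46.9). After thinning the shares were 8.46% and 54.6%. The Gad neurons gave 12.6% in the NTD and 78.5% in the control library. Blood and vessel barcodes, however, gave 15.9% in the NTD and 66.2% in the control library, so the share of neurons with a Hox UMI was near theirs in each. Neurons with no Hox UMI, 570 in the NTD and 83 in the control library, are thus not read as a regional subset. The summed level of the Hox genes, which does not depend on depth in that way, was 58.5 CPM in NTD neurons (48.2 to 70.5) and 912 CPM in control neurons (845 to 982). In blood and vessel barcodes the same sum was 68.0 CPM in the NTD and 608 CPM in the control library. The control neurons thus stood above blood and vessel barcodes in summed Hox level and the NTD neurons did not. All 12 Hox genes that passed the filter, of 39 listed, were lower in NTD neurons. The filter asks for 20 UMIs over both libraries, which these genes reached through the control library, so the count adds no support.

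Of the 11316 genes measured, 1942 (17.2%) were at least 1.5-fold higher and 1139 (10.1%) at least 1.5-fold lower in NTD than in control Slc17a6 neurons. The split depends on the scaling, since scaling by total UMIs gave 1301 higher and 1864 lower, and it shifted the median of all measured genes to -0.10 from 0.05 on the log2 scale. It also depends on gene length. Relative to genes of like genomic span 1255 were higher and 1409 lower. The median log2 ratio was 0.38 for genes under 10 kb and -0.20 for genes of 300 kb or more in Slc17a6 neurons, with 0.45 and -0.22 in Gad neurons and 0.31 and -0.02 in blood and vessel barcodes. Ribosomal protein genes took 11.9% of UMIs in NTD neurons and 7.33% in control neurons, and mitochondrial genome genes 0.219% and 0.355%. The part of these differences in single genes was not tested.

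The 10 genes with the lowest ratio among those of at least 50 CPM were 6 genes of the Hox clusters and 4 genes of liver and yolk sac. Hoxb6, a trunk Hox gene, had 1 UMI in NTD neurons, 0.527 CPM (0.0134 to 2.94), against 60.2 CPM in control neurons, and blood and vessel barcodes had 1.67 and 43.1 CPM. Hoxb3, a hindbrain gene, stood at 9.49 CPM in NTD and 144 CPM in control neurons, and at 6.13 and 64.7 CPM in blood and vessel barcodes. Hoxa3, Hoxc4, Hoxb4 and Hoxaas3 were the other Hox cluster genes, at 2.11 to 3.69 CPM in NTD neurons and 56.2 to 88.9 CPM in control neurons. Afp, the fetal liver protein alpha-fetoprotein, stood at 1.58 CPM in NTD and 115 CPM in control neurons, and at 3.90 and 210 CPM in blood and vessel barcodes. Apoa1, Apoa2 and Rbp4, which encode secreted carrier proteins of liver and yolk sac, stood at 2.11, 4.75 and 2.64 CPM in NTD neurons and 66.7, 54.9 and 52.3 CPM in control neurons, beside 60, 52.5 and 57.2 CPM in control blood and vessel barcodes.

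The 10 genes with the highest ratio at the same level were Hist1h2bn, Lmx1a, Cebpzos, Myl7, Trpm3, Hist1h1e, Hist1h2ae, Hist1h1b, Sybu and Neurog2. The histone genes, whose replication-dependent transcripts accompany DNA synthesis, were high in NTD blood and vessel barcodes too. Hist1h1b, a linker histone, stood at 110 CPM in NTD and 34.0 CPM in control neurons, and at 86.4 and 40.3 CPM in blood and vessel barcodes. Hist1h2bn stood at 51.2 and 3.92 CPM, and at 34.6 and 11.7 CPM in blood and vessel barcodes. Myl7, the atrial myosin light chain, stood at 58.0 and 15.7 CPM, and at 35.1 and 20.6 CPM in blood and vessel barcodes. Neurog2, the proneural bHLH gene of glutamatergic lineages, stood at 51.7 CPM in NTD and 17.0 CPM in control neurons, a log2 ratio of 1.56 (0.76 to 2.56), against 21.7 and 13.1 CPM in blood and vessel barcodes.

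Genes that blood and vessel barcodes held little of were compared next, since free RNA adds little to their level. At least 4-fold above blood and vessel barcodes in each library were 441 genes (3.9%), and 434 without the rule's own genes. Of the 434, 19 (4.38%) were at least 1.5-fold higher and 134 (30.9%) at least 1.5-fold lower in NTD neurons. Of all measured genes 17.2% were higher and 10.1% lower. For the 434, scaling by total UMIs gave 9 higher and 189 lower. Relative to genes of like span, 24 were higher and 131 lower. The median log2 ratio of the 434 genes was -0.36, and -0.30 relative to genes of like span. The 15 highest and 15 lowest genes at or above 4-fold in either library, with at least 50 CPM, were listed by a rule added after the values were seen. A gene can enter that list through the library where it is high.

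Among the genes lower in NTD neurons, Mgat4c, a glycosyltransferase of N-glycan branching (chr10:101681487-102391469, plus strand), stood at 71.2 CPM in the NTD library (59.7 to 84.3) and 262 CPM in the control library (227 to 300), a log2 ratio of -1.88 (-2.20 to -1.56). It was held by 8.15% of NTD and 20.1% of control neurons, and by 1.01% and 0.637% of blood and vessel barcodes. The ratio was -2.62 among neurons with no Hox UMI. Robo3 (chr9:37415669-37433246, minus strand), the receptor that lets commissural axons cross the midline, stood at 143 CPM (126 to 161) in the NTD and 405 CPM (362 to 453) in the control library, a log2 ratio of -1.50 (-1.74 to -1.26). Blood and vessel barcodes had 14.5 and 15.5 CPM of it, and the ratio was -1.82 among neurons with no Hox UMI. The adhesion gene Chl1 stood at 88.6 and 214 CPM, and at 1.67 and 13.1 CPM in blood and vessel barcodes. Adcy2, an adenylyl cyclase, was at 13.7 and 73.2 CPM, and Lrrtm3, a synaptic organizer of excitatory synapses, at 43.2 and 118 CPM. The log2 ratios of Chl1, Adcy2 and Lrrtm3 were -1.28, -2.40 and -1.44. They shrank to -0.48, -1.06 and -1.20 among neurons with no Hox UMI, which for Chl1 is short of 1.5-fold. Robo3, Mgat4c and Chl1 were lower in NTD Gad neurons as well, with Robo3 at 155 CPM in NTD and 343 CPM in control ones.

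Among the genes higher in NTD neurons, Lmx1a (chr1:167689237-167848741, plus strand) stood at 73.8 CPM in the NTD library (62.1 to 87.1) and 10.5 CPM in the control library (4.52 to 20.6), a log2 ratio of 2.74 (1.80 to 4.06), where blood and vessel barcodes had 13.9 and 13.6 CPM. It passed the 4-fold limit through the NTD library alone, and in the control library it lay below the background. The ratio was 2.37 among neurons with no Hox UMI, where 52 of 570 NTD but just 3 of 83 control neurons held Lmx1a. Sybu, which encodes the axonal transport adaptor syntabulin, stood at 102 and 34.0 CPM, a log2 ratio of 1.56 (0.99 to 2.23), and at 7.25 and 6.56 CPM in blood and vessel barcodes. Tfap2d stood at 70.7 and 26.2 CPM, a ratio of 1.40 (0.75 to 2.19) that was 0.63 among neurons with no Hox UMI. Shisa6, an auxiliary protein of AMPA receptors, stood at 114 and 49.7 CPM, and Hs3st5, a heparan sulfate sulfotransferase, at 283 and 139 CPM. Grm8 and Ralyl had log2 ratios of 0.68 and 0.60, which turned to -0.45 and -0.36 among neurons with no Hox UMI.

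**Figure D4:**
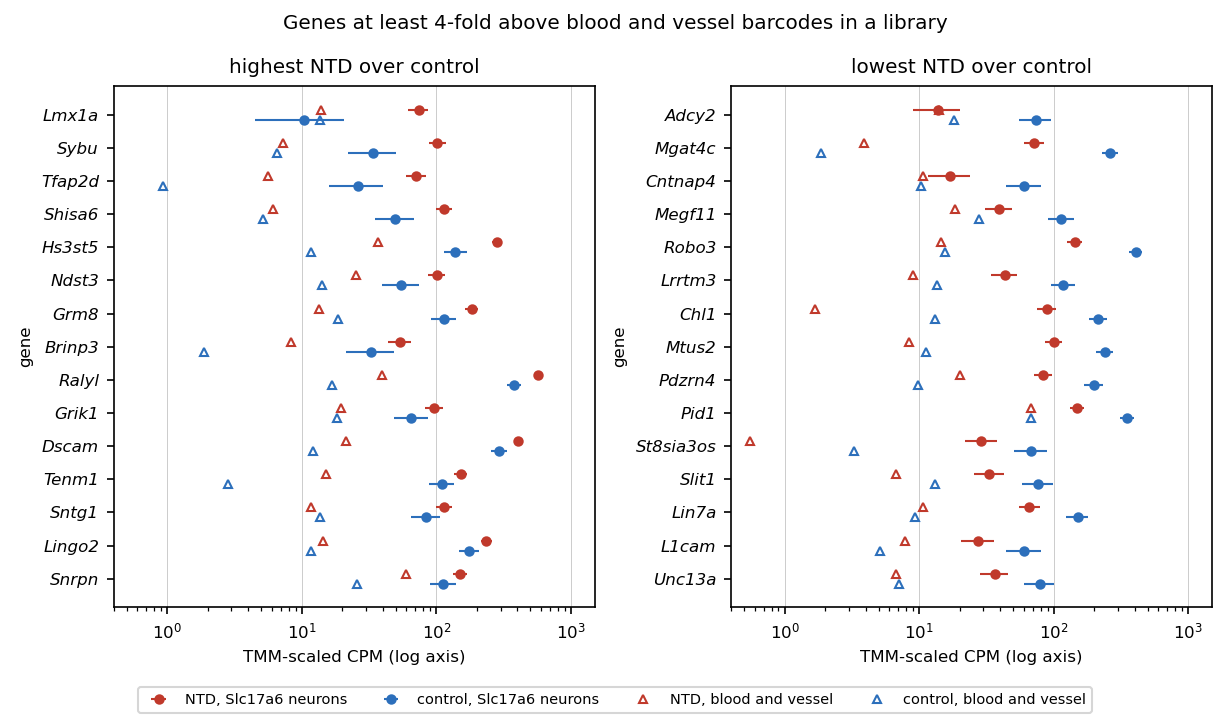
Levels in TMM-scaled CPM (log axis) of the 15 genes with the highest (left) and the 15 with the lowest (right) NTD over control ratio among genes at least 4-fold above blood and vessel barcodes in a library. Filled circles with 95% Poisson bars are Slc17a6 neurons and open triangles blood and vessel barcodes, NTD in red above control in blue; Mgat4c lies at 71.2 and 262 CPM and Lmx1a at 73.8 and 10.5 CPM.

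Lists of genes for mature neuronal function had medians below that of all measured genes, 0.05 on the log2 scale. Their counts stand beside 17.2% of all measured genes at least 1.5-fold higher and 10.1% lower. Of 31 measured ion channel genes 0 were at least 1.5-fold higher and 7 lower in NTD neurons, with a median of -0.28. Scn2a, a sodium channel of axons, stood at 50.6 CPM in NTD and 103 CPM in control neurons, and at 5.02 and 3.75 CPM in blood and vessel barcodes. Of 33 synaptic vesicle genes 3 were higher and 6 lower (median -0.32), among them Unc13a, a vesicle priming factor, at 36.4 and 78.5 CPM. Of 13 GABA and glycine receptor genes 1 was higher and 4 lower (median -0.34). Glra1, the glycine receptor alpha 1 subunit, stood at 27.4 CPM (20.5 to 36.0) in NTD and 133 CPM (109 to 162) in control neurons, and at 20.1 and 38.9 CPM in blood and vessel barcodes. Its log2 ratio was -2.28 (-2.79 to -1.79), and -1.31 among neurons with no Hox UMI. Of 20 glutamate receptor genes 2 were higher and 5 lower (median -0.21).

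Axon guidance and adhesion genes followed the same pattern, beside 17.2% of all measured genes at least 1.5-fold higher and 10.1% lower. Of 40 axon guidance genes 2 were higher and 11 lower (median -0.18), with Slit1, a midline repellent, at 33.2 CPM in NTD and 75.9 CPM in control neurons. Of 40 cell adhesion genes 3 were higher and 10 lower (median -0.19), with L1cam, an axon adhesion molecule, at 27.4 and 60.2 CPM. Relative to genes of like span the medians of these 6 lists lay between -0.20 and 0.00. In Gad neurons the medians of the same lists lay between -0.36 and -0.10, so lower medians were not particular to Slc17a6 neurons. In blood and vessel barcodes they lay between 0.03 and 0.58. Early neurogenesis genes stood near the background, with 6 of 37 higher, 3 lower and a median of 0.07, which was -0.09 with scaling by total UMIs. Neurog2 and Pou3f4, a POU factor of young neurons at 47.5 and 15.7 CPM, were higher, and Onecut2, a factor of postmitotic neurons, was lower at 170 and 347 CPM. Of 28 neuronal cytoskeleton genes 5 were higher and 2 lower, with a median of -0.07.

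Neural progenitor genes were higher in NTD Slc17a6 neurons, as they were in the background of that library. Of 14 measured genes 11 were at least 1.5-fold higher and 1 lower, beside 17.2% and 10.1% of all measured genes. The list had a median span of 9.68 kb, and 36.0% of genes under 10 kb were higher. Its median log2 ratio was 0.89 in Slc17a6 neurons, 0.72 in Gad neurons and 0.57 in blood and vessel barcodes. Relative to genes of like span the median in Slc17a6 neurons was 0.53. Fabp7, a lipid-binding protein of radial glia, stood at 412 CPM in NTD and 143 CPM in control neurons, and at 312 and 110 CPM in blood and vessel barcodes. Vim, an intermediate filament of progenitors, stood at 629 and 349 CPM, and at 586 and 396 CPM in blood and vessel barcodes. Hes5, a Notch target, stood at 210 and 102 CPM, and at 168 and 74.0 CPM. Progenitor genes summed to 2252 CPM in NTD and 1245 CPM in control neurons, against 2381 and 1693 CPM in blood and vessel barcodes, with 0 of the 14 genes at 0 in either library.

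Stress response and p53 target genes had medians above that of all measured genes, but both lists hold short genes, and genes under 10 kb had a median of 0.38 with 36.0% of them higher. Of 16 measured stress response genes 6 were at least 1.5-fold higher and 0 lower. Their median was 0.49 in Slc17a6 neurons, 0.65 in Gad neurons and 0.48 in blood and vessel barcodes. Relative to genes of like span the median in Slc17a6 neurons was 0.17. Ldha, which makes lactate, stood at 276 CPM in NTD and 127 CPM in control neurons, and at 276 and 176 CPM in blood and vessel barcodes. Of 17 p53 target genes 4 were higher and 1 lower (median 0.50, and 0.26 relative to genes of like span), a count near the 17.2% higher and 10.1% lower of all measured genes. The median of the p53 targets was 0.31 in Gad neurons and 0.06 in blood and vessel barcodes. Aen, a p53-induced nuclease, stood at 32.2 and 6.54 CPM, and at 34.6 and 28.1 CPM in blood and vessel barcodes. Of 11 mitochondrial genome genes 0 were higher and 4 lower (median -0.51, and -1.07 relative to genes of like span). Their median was -0.40 in Gad neurons and 0.51 in blood and vessel barcodes. mt-Co1, a subunit of cytochrome oxidase, stood at 236 CPM in NTD and 456 CPM in control neurons, and at 490 and 423 CPM in blood and vessel barcodes.

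**Figure D5:**
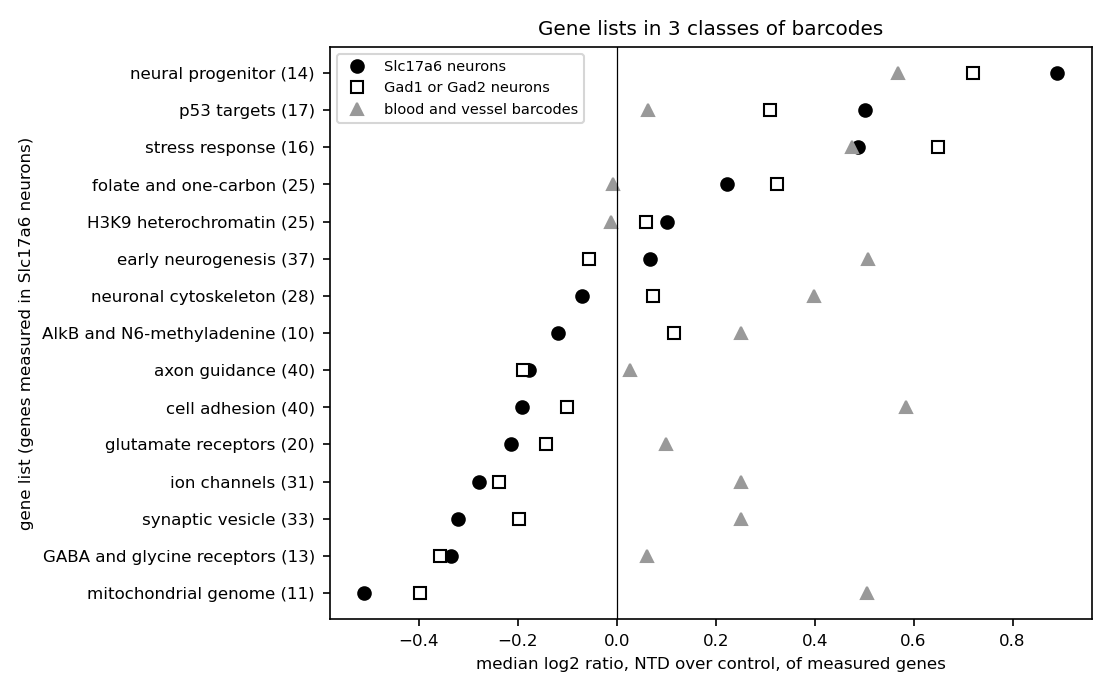
Median log2 ratio of NTD over control (horizontal axis) of the measured genes of 15 lists (rows, with the number measured in Slc17a6 neurons) in Slc17a6 neurons (filled circles), Gad1 or Gad2 neurons (open squares) and blood and vessel barcodes (grey triangles). Ion channel, receptor, synaptic, guidance and adhesion lists lie between -0.34 and -0.18 in Slc17a6 neurons, and the progenitor list at 0.89.

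The study's title names the DNA demethylase ALKBH1 and H3K9me3 heterochromatin. Alkbh1 (chr12:87425840-87444017, minus strand) stood at 75.9 CPM in NTD and 109 CPM in control Slc17a6 neurons, a log2 ratio of -0.52 (-0.92 to -0.11), short of 1.5-fold. Blood and vessel barcodes held more of it, at 156 CPM in the NTD and 203 CPM in the control library, and the Gad neurons had 108 and 109 CPM. Among neurons with at least 2 Slc17a6 UMIs the ratio was -1.61, and among neurons with no Hox UMI it was -0.24. The counts of the next 3 lists stand beside 17.2% of all measured genes at least 1.5-fold higher and 10.1% lower. Of 10 measured AlkB and N6-methyladenine genes 2 were higher and 0 lower. N6amt1, a methyltransferase proposed to act on DNA, stood at 35.3 and 15.7 CPM. Of 25 H3K9 methylation and heterochromatin genes 3 were higher and 1 lower, with a median of 0.10 that was -0.06 with scaling by total UMIs. Cbx3, the HP1 gamma protein that binds H3K9 methyl marks, stood at 391 and 235 CPM, and at 379 and 333 CPM in blood and vessel barcodes. Of 25 genes of folate metabolism 6 were higher and 2 lower (median 0.22).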

How the data were processed

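Droplet single-cell RNA counts from the Chromium 3' v3 kit were used, with 1 NTD and 1 control library. The authors deposited unnormalised UMI counts for each gene in each barcode. Cell Ranger 7.0.1 made them, as the matrix headers record. STAR and mm10 are listed in the submitters' processing notes. Cell calling, the use of intronic reads and the gene annotation behind the counts were not stated there. The libraries held 55524355 (NTD) and 50741121 (control) UMIs, with medians of 2456 and 2234 per barcode. A filter of 500 genes, 1000 UMIs and 10% mitochondrial UMIs removed 0 barcodes. Scrublet (scanpy 1.11.5, expected rate 0.8% per 1000 barcodes) called 2399 NTD and 3042 control barcodes doublets. UMIs were summed over the neurons of each library and scaled by TMM, 0.5 was added for log2 ratios of NTD over control, and genes with at least 20 UMIs over both were measured. Intervals are exact Poisson, conditional binomial or Clopper-Pearson, and Newcombe for differences of shares. No test was possible with 1 library per group. Blood and vessel barcodes held at least 2 Alas2 UMIs, or at least 3 of 8 endothelial or 3 of 8 macrophage genes, and were not called doublets. Gene IDs matched GENCODE M21 (GRCm38) for 32235 of 32285 genes, which gave coordinates and spans that may differ from the authors' annotation. The steps were tested on simulated counts.

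Named genes were those of the rule, the 10 highest and 10 lowest ratios at 50 CPM or more (leaving out haemoglobin, mitochondrial genome, predicted and sex-linked genes), up to 3 per list at 20 CPM or more, subtype factors held by at least 5% of neurons in a library, the most widely held markers of other cell types, and Alkbh1. Other genes named, among them those of the signature over Gad neurons, were chosen after their values were seen. The rule, the lists and the comparator classes were chosen with earlier results of these data known. Some genes are not reported here.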

Additional observations from a re-analysis of the deposited data

How the results depend on the processing

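No paired analysis was possible because each group had 1 library. The difference in the share of Slc17a6 neurons, 2.33 points, stayed positive under every alternative run. It was 0.690 points with at least 2 Slc17a6 UMIs, 1.72 with at least 5 neuron genes, 1.93 with the higher of the 2 lowest barcode totals as a floor, 1.14 after thinning, and, in alternatives added after the data were seen, 0.640 with both stricter criteria and 1.73 among neurons with a Cacna2d1 UMI. The difference in the share with a Hox UMI, -53.7 points, lay between -55.7 and -47.1 when the neurons were chosen anew under each alternative, and was -46.1 when the same neurons were thinned, outside its interval. Genes higher by 1.5-fold numbered 3840 with a filter of 1 UMI, 941 with a filter of 100 UMIs and 1255 when compared within span bins. Genes lower numbered 1864 with scaling by totals, 3970 with the filter of 1 UMI and 296 with that of 100. Relations that turned were, with at least 2 Slc17a6 UMIs, neuropeptides (-0.29) and Grin2a (0.57). With both stricter criteria these were -0.40 and 1.30. With at least 5 neuron genes Gmnc turned to 4.66, a gene held by few neurons. After thinning Jun (-0.17) and Grik3 (0.30) turned, and among neurons with no Hox UMI neuropeptides (-0.088), Ralyl (-0.36), Grm8 (-0.45), Lhx1 (0.39) and Pou4f1 (0.080). The lists of GABAergic genes turned to 0.56 with doublets kept and 1.10 with the filter of 1 UMI, and that of GABA and glycine markers to 0.56 with that filter, where few genes were measured otherwise. The cause was not tested. These are the sign changes among the reported genes and lists past 1.5-fold. Smaller ratios changed sign too, among them Ntrk3 (-0.53, and 0.13 with at least 2 Slc17a6 UMIs), Dscam (0.47) and Tenm1 (0.46), which were -0.50 and -0.34 among neurons with no Hox UMI. With an expected doublet rate of 15% in both libraries 207 control neurons remained and the share difference was 2.20 points. Depth limits low genes, since 1 UMI is 0.527 CPM in NTD and 1.31 CPM in control neurons.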

Other observations

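Transmitter receptors, peptides and markers of other cells in the Slc17a6 neurons were measured beyond the comparisons above. The peptide gene Adcyap1, which encodes PACAP, stood at 20.6 CPM in NTD and 35.3 CPM in control neurons, against 3.34 and 3.28 CPM in blood and vessel barcodes. Sst, the somatostatin gene, stood at 29.5 and 19.6 CPM, against 22.9 and 10.8 CPM. Ntrk3, the receptor for neurotrophin 3, was held by 17.1% of NTD and 26.2% of control neurons and stood at 104 and 150 CPM, against 19.5 and 24.8 CPM in blood and vessel barcodes. Reln, the secreted protein of Cajal-Retzius cells, stood at 87.5 and 139 CPM, against 51.8 and 52.0 CPM in blood and vessel barcodes, while the Cajal-Retzius gene Trp73 had 8 UMIs in NTD and 5 UMIs in control neurons. Gmnc, a regulator of multiciliated cells that also belongs to the signature over Gad neurons, was held by 1.54% of NTD and 0.410% of control neurons.

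Among markers of other cells, Col3a1, a collagen of mesenchyme, was held by 23.1% of NTD and 26.2% of control Slc17a6 neurons and stood at 89.6 and 94.2 CPM, below the 165 and 125 CPM of blood and vessel barcodes. Epithelial Krt8 stood at 31.6 and 23.5 CPM, against 25.6 and 38.0 CPM. Endothelial genes summed to 63.3 CPM in NTD and 83.7 CPM in control neurons, against 1428 and 2362 CPM in the blood and vessel barcodes that were chosen by them. Macrophage genes summed to 38.5 and 28.8 CPM, against 221 and 144 CPM.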
